A study of Mus musculus with 27 samples.

Results

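The comparison described here is between primary mouse lung fibroblasts 20 d after the removal of KU60019, given at 3 µM for 35 d, and fibroblasts 20 d after the removal of the solvent, DMSO, also given for 35 d. Its members are the 6 RNA-seq libraries whose labels name those treatments, 3 with KU60019 and 3 with DMSO, of 27 in the series, together with all 18684 genes that passed the filter on low counts of 48440 in the count table. All cells were wild-type C57BL/6 primary lung fibroblasts. The other groups, of 3 libraries each, were 15 d of DMSO or KU60019, the same followed by removal, 35 d of DMSO or KU60019 without removal, and cells harvested 10 d after 10 Gy of X-rays, which served as a positive control for senescence. Libraries are called as in their titles: S19, S20 and S21 had DMSO and S22, S23 and S24 had KU60019, and values are given in that order. Each title also carries a number shared across groups. The labels do not say what it stands for, nor whether the libraries came from separate cultures or animals, so p-values rest on the spread between libraries. That spread was estimated within the groups over all 27 libraries, not over these 6 alone. The labels used here give no age for the source animals.

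KU60019 is a small-molecule inhibitor of the kinase ATM. ATM is activated by DNA double-strand breaks and phosphorylates p53, CHK2 and histone H2AX, which leads to cell cycle arrest through p53 targets such as p21, and to repair. A lasting arrest of this kind is called senescence. Senescent fibroblasts are known for low expression of cell division genes and of lamin B1, high expression of the CDK inhibitors p21 and p16, and secretion of cytokines, chemokines and proteases. Division genes are held down in arrested cells by the DREAM and retinoblastoma protein complexes, which act on promoters with cell cycle homology regions, CCAAT boxes and E2F sites. Interferon-induced genes carry interferon-stimulated response elements, bound by interferon regulatory factors.

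Promoter stretches of 8 genes are shown because their groups lead the results below: mitotic genes and replication genes, which fell, and interferon-induced genes, which rose. They are the members of each list with the lowest p-values that have the motif upstream of, and within 120 bases of, the start, and each runs 5′ to 3′ on the gene's strand over the 120 bases before the RefSeq start (GRCm38.p6). Capitals mark matches on either strand to the cell cycle homology region (TTTGAA or TTCGAA) in Cdc20, Mki67 and Top2a, to the E2F site (TTTCCCGC, TTTGGCGC or TTTCGCGC) in Mcm6 and Rfc3, and to the interferon-stimulated response element (GAAA, any 2 bases, GAAA) in Rsad2, Trim30a and Oas1a. Overlapping matches run together.
Cdc20: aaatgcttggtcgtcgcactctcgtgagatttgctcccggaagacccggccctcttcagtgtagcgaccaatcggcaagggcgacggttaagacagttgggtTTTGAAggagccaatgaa
Mki67: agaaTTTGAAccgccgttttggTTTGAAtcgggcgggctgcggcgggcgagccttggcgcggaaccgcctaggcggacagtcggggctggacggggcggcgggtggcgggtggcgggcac
Top2a: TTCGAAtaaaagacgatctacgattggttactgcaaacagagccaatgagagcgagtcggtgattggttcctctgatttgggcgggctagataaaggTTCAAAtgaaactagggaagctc
Mcm6: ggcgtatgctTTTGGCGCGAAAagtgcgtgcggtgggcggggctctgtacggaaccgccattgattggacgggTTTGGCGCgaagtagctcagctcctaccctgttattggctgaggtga
Rfc3: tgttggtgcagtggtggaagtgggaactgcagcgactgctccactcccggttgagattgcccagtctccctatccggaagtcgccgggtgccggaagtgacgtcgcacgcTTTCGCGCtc
Rsad2: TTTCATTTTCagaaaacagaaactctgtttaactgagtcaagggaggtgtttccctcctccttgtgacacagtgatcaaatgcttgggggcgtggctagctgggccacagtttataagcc
Trim30a: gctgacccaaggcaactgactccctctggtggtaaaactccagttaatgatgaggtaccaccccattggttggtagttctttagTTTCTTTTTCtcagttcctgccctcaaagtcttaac
Oas1a: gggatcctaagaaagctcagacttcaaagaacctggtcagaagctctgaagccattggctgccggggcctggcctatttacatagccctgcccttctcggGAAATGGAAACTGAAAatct
These lie, in that order, at chr4:118437344-118437463 (minus strand), chr7:135716380-135716499 (minus strand), chr11:99024190-99024309 (minus strand), chr1:128359706-128359825 (minus strand), chr5:151651209-151651328 (minus strand), chr12:26456453-26456572 (minus strand), chr7:104465194-104465313 (minus strand) and chr5:120907526-120907645 (minus strand). Cdc20 encodes the activator of the anaphase-promoting complex, Mki67 the proliferation marker Ki-67, Top2a topoisomerase II alpha, Mcm6 a subunit of the replicative helicase and Rfc3 a subunit of the clamp loader. Rsad2 encodes viperin, Trim30a a TRIM-family protein and Oas1a an oligoadenylate synthetase. Over 300-base windows from 250 bases before to 50 after the start, 1 per gene symbol, 80% of the 20 mitosis promoters in the RefSeq table held a cell cycle homology region, against 19.4% of all 27025 promoters. A CCAAT box (CCAAT, either strand) was in 85% of the same mitosis promoters and in 37.9% of all. An E2F site was in 41.7% of the 24 replication promoters and in 1.91% of all promoters, and an interferon-stimulated response element was in 62.1% of the 29 promoters of the interferon list and in 3.49% of all. Among all genes with a window, an E2F site was in 5.49% of the 3043 that fell, 2.54% of the 3232 that rose and 3.42% of the 11766 tested. For the other motifs these shares lay closer together: the cell cycle homology region was in 15.8% of the genes that fell and 13.9% of those tested, and the interferon-stimulated response element in 3.47% of the genes that rose and 3.09% of those tested. Matches are letters in a window, not measured binding.

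DMSO libraries S19 and S20 held 2.91% and 0.431% of their counts in ribosomal RNA genes, against 0.051% in DMSO library S21 and 0.0502% to 0.0832% in the KU60019 libraries. The 21 other libraries ran from 0.0252% to 1.6%. Total counts ranged from 20659745 to 26719221 in the DMSO libraries and from 23510052 to 34854026 in the KU60019 libraries. The share in mitochondrially encoded genes was 3.77%, 2.06% and 1.85% in DMSO libraries S19, S20 and S21 and 2.96% to 3.31% in the KU60019 libraries, so the groups overlapped through library S19. The DMSO group also stood apart from the remaining groups of the series. Its mean level lay outside the range of the means of the 7 groups not compared, with the KU60019 mean inside that range, for 2544 of the 4554 genes called higher (55.9%) and 2850 of the 4576 called lower (62.3%). The reverse, with the KU60019 mean alone outside, held for 825 of the higher genes (18.1%) and 675 of the lower (14.8%). Both means were outside for 615 higher and 468 lower genes. These counts describe group means and were not tested.

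Nearly as many genes rose as fell. By edgeR's quasi-likelihood test with Benjamini-Hochberg adjustment, 9130 of 18684 genes differed at an adjusted p under 0.05, which is 48.9% of those tested. Of these, 4554 (24.4%) were higher after KU60019 and 4576 (24.5%) lower. At least 2-fold changes passed the test for 2820 higher genes (15.1%) and 2301 lower genes (12.3%). The median log2 fold change of all genes was near 0, at -0.004. The 3 and 3 libraries did not overlap for 9273 of the 18684 genes, 8067 of them among those called. Scaling moved this balance: by library size alone, 6355 genes were called higher and 2669 lower, with a median shift of 0.29 over all genes, and by limma on log2(TPM + 1), 5952 and 1751, with a median shift of 0.32. Without DMSO libraries S19 and S20, 6012 genes were called, 3033 higher and 2979 lower. That fit, used below wherever S19 and S20 are left out, keeps 1 DMSO library, S21, and assumes that it varies as the libraries of the other groups do. Fitted to the 6 libraries alone, 5487 were called, 2966 higher and 2521 lower. With so many genes called, the share of each gene group below has to be read against 24.4% and 24.5%. By TPM the falls counted were fewer in several lists: 7 of the 24 tested by TPM for ATM and damage signalling, 13 of 30 for sterol synthesis, 7 of 23 for glycolysis and 5 of 17 for the E2F family.

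**Figure D1:**
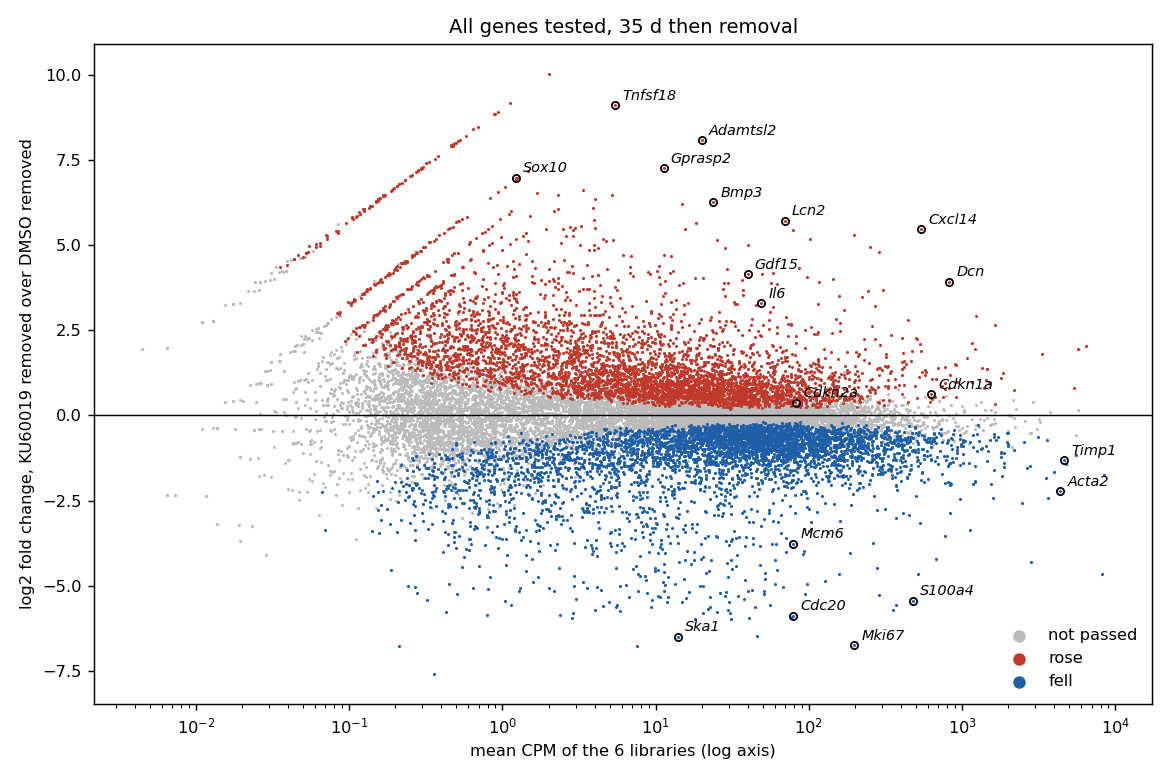
Log2 fold change of KU60019 removed over DMSO removed (vertical axis) against the mean CPM of the 6 libraries (horizontal log axis), one point for each gene tested, red where it rose, blue where it fell and grey where it did not pass. Mki67, Cdc20 and Ska1 sit at the bottom near -6 and Tnfsf18, Adamtsl2 and Gprasp2 at the top above 7. The diagonal rows of points at low CPM are genes with 0 or few counts in a group.

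Genes of mitosis were lower in the KU60019 libraries without exception: all 25 tested members fell, with a median log2 fold change of -5.18. In all 25 the libraries of the groups did not overlap, as for 9273 of all 18684 genes tested. Mki67, at chr7:135689784-135716361 on the minus strand, had 480.1, 357 and 338 CPM (counts scaled to the effective library size) in DMSO libraries S19, S20 and S21 and 3.32, 4.81 and 2.94 CPM in the KU60019 libraries. Its log2 fold change was -6.74 ± 0.30 (SE, adjusted p = 1.99e-13). Every DMSO library was thus far above every KU60019 library. Cdc20 showed the same order, at 132, 153 and 182 CPM against 2.89, 3.14 and 2 CPM, a log2 fold change of -5.87 ± 0.24 (adjusted p = 7.44e-14). Aurka, a spindle kinase, fell by 4.80 and Birc5, the chromosomal passenger protein survivin, by 5.23 on the log2 scale. The 12 largest falls of named genes were Mki67, Ska1, Kif2c, Pclaf, Mxd3, Ccnb1, Il1rn, Cdca3, Cdc20, Cenpf, Pbk and Kif23, with log2 fold changes from -6.74 to -5.78. They include the kinetochore gene Ska1, the microtubule depolymerase Kif2c, cyclin B1 and the kinetochore gene Cenpf. Among them Il1rn, the interleukin-1 receptor antagonist, is no division gene: it stood at 3.56, 4.94 and 8.22 CPM with DMSO and 0.0386, 0.0776 and 0.134 CPM with KU60019.

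Placed among all 9 groups, the difference in Mki67 came with high levels after DMSO removal and low levels after KU60019 removal. The DMSO group had 391.6 ± 77.2 CPM (SD, n = 3) and the KU60019 group 3.69 ± 0.99 CPM (SD, n = 3). The 6 other unirradiated groups had means between 10.7 and 27.6 CPM, and irradiated cells had 1.01 ± 0.301 CPM (SD, n = 3). The mean log2 CPM over the mitosis list was 5.62, 6.21 and 6.62 in the DMSO libraries and 1.05, 1.57 and 1.03 in the KU60019 libraries. It ran from 2.27 to 3.90 in the 18 libraries of the other unirradiated groups and from 0.603 to 0.849 after irradiation. The KU60019 libraries therefore lay between the other unirradiated and the irradiated libraries, and the DMSO libraries above all others.

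**Figure D2:**
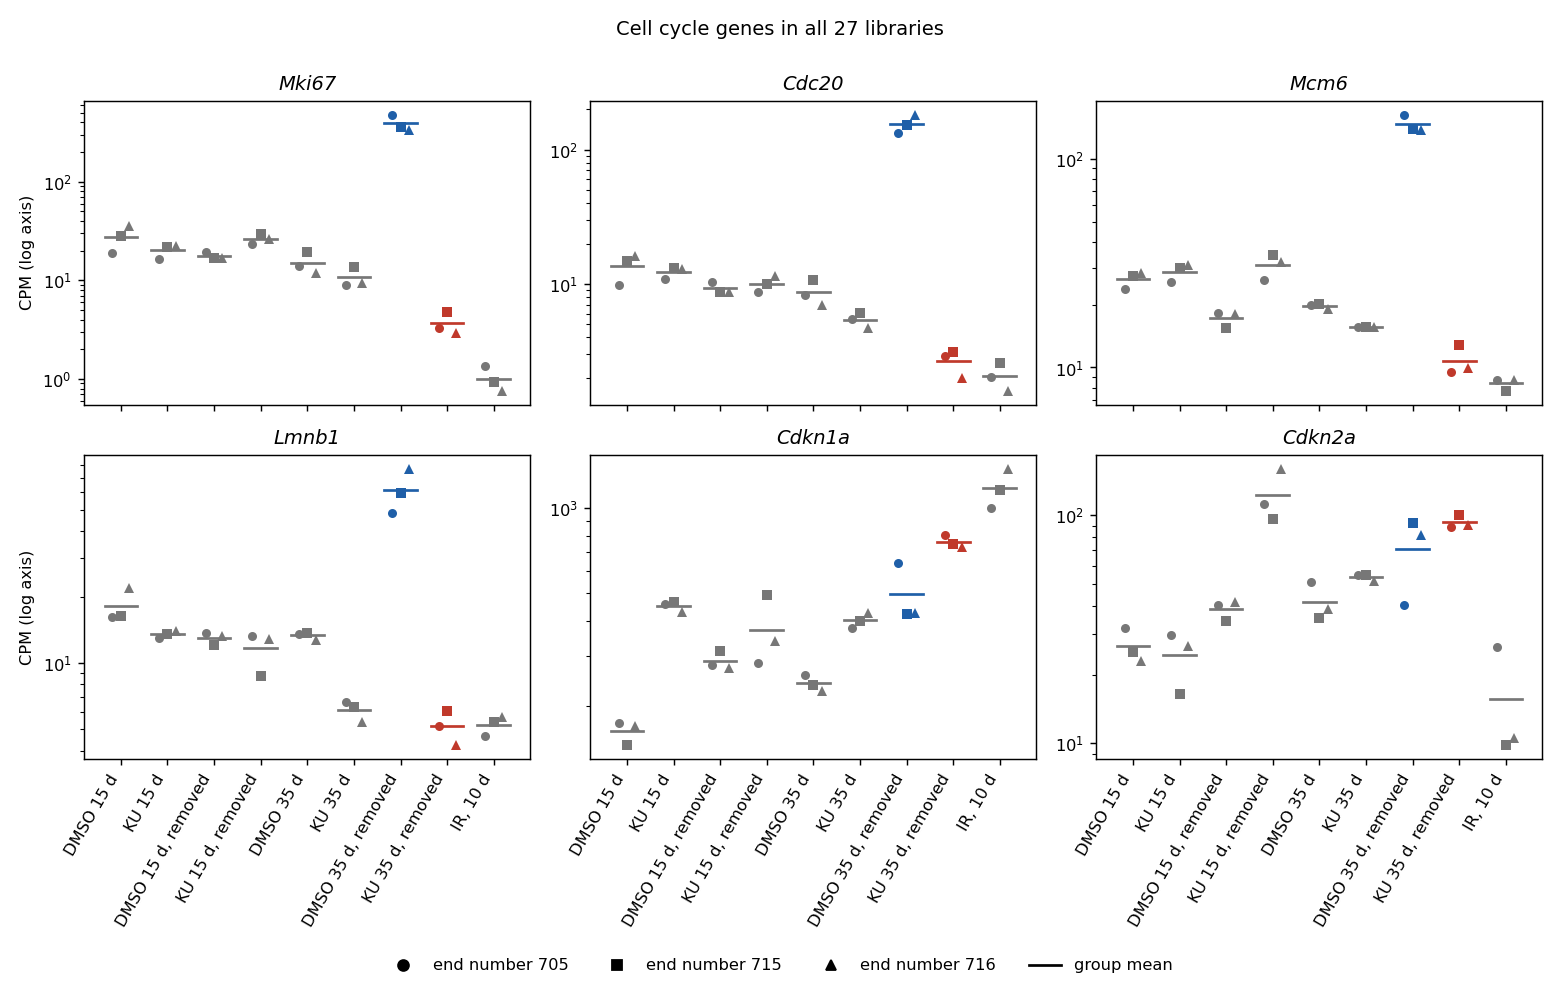
CPM on log axes of 6 cell cycle genes in all 27 libraries, by group along the horizontal axis, with a line at each group mean and marker shapes for the number in the title. DMSO removed after 35 d (blue) is above every other group for Mki67, Cdc20, Mcm6 and Lmnb1, and KU60019 removed after 35 d (red) is near the irradiated cells, with Mki67 at a mean of 3.69 against 1.01 CPM, while for Cdkn2a the blue and red points overlap.

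DNA replication genes fell in 29 of 30 tested members, with a median of -2.68. Mcm6 had 163, 139 and 138 CPM with DMSO and 9.49, 12.9 and 9.93 CPM with KU60019 (log2 fold change -3.77 ± 0.14, adjusted p = 1.17e-14), so the groups were far apart with little spread in either. Tk1, thymidine kinase of the S phase, stood at 70.4, 109 and 117 against 2.16, 2.83 and 2.86 CPM (log2 fold change -5.23 ± 0.24, adjusted p = 3.32e-13). The helicase subunits Mcm7 and Mcm3 fell by 3.24 and 3.13 on the log2 scale. The member that did not pass was Fen1, a flap endonuclease, with 14 counts over the DMSO libraries and 4 over the KU60019 libraries. Of the E2F and retinoblastoma family, 10 of 18 fell and 3 rose, at a median of -0.83. The atypical repressors E2f8 and E2f7 fell by 5.00 and 4.89 and the transcriptional activator Mybl2 by 3.44, while Rb1, Rbl2 and Lin52 rose by 0.60, 0.78 and 1.27. E2f8 was at 3.35, 7.15 and 6.59 CPM with DMSO and 0.154, 0.349 and 0.0534 CPM with KU60019. G1 cyclins and kinases fell in 5 of 9 members, among them Ccne2 by 2.62, Ccne1 by 1.07 and Cdk4 by 0.86, and none rose. Cyclin D1, Ccnd1, was at 48.9, 43.2 and 64.7 CPM against 38.2, 60.4 and 22.8 CPM, which overlap (log2 fold change -0.37 ± 0.36, adjusted p = 0.408).

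The chromatin and nuclear envelope genes on a list of those known to be low in senescence fell in 14 of 15 members, at a median of -2.02. Lamin B1, Lmnb1, was at 48.5, 59.7 and 76.7 CPM with DMSO and 5.17, 6.05 and 4.22 CPM with KU60019 (log2 fold change -3.59 ± 0.19, adjusted p = 2.58e-12). Both groups were tight and the lowest DMSO library was over the highest KU60019 library. Among all groups, the Lmnb1 mean of 5.15 CPM after KU60019 removal lay beside the 5.23 CPM of irradiated cells and the 6.12 CPM of 35 d of KU60019 without removal. Uhrf1, which guides maintenance DNA methylation, fell by 4.84, the H3K27 methyltransferase Ezh2 by 2.58 and the H3K9 methyltransferase Suv39h1 by 2.22 on the log2 scale. Hmgb2, a chromatin protein, was at 17.5, 49.9 and 66.4 CPM against 7.29, 9.04 and 10.7 CPM (log2 fold change -2.31 ± 0.35, adjusted p = 1.05e-05), with DMSO library S19 the closest to the KU60019 libraries. The replication-dependent histone list had 8 falls and 1 rise among 14 tested of 21 matched members. Without DMSO library S19, 5 fell, and without both S19 and S20, 2 fell. Hist1h4i fell by 2.99, and the member that rose was the linker histone Hist1h1c, at 71.2, 90.1 and 90.4 CPM against 192, 220.3 and 181 CPM (log2 fold change 1.24 ± 0.17, adjusted p = 3.85e-06).

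CDK inhibitors moved in both directions: 2 of 8 rose and 4 fell. Cdkn1a, which encodes p21, was at 639, 423 and 427 CPM with DMSO and 804, 746 and 731 CPM with KU60019. The lowest KU60019 library was above the highest DMSO library, and the log2 fold change of 0.62 ± 0.18 passed the test (adjusted p = 0.00612). Its mean after KU60019 removal, 760.1 CPM, was the highest of the 8 unirradiated groups, with 1182 CPM in irradiated cells. Cdkn2a, whose transcripts encode p16 and p19ARF, was at 40.4, 92 and 81.6 CPM against 88.6, 99.7 and 90.7 CPM. The groups overlapped, and the log2 fold change of 0.38 ± 0.31 did not pass (adjusted p = 0.324). Cdkn2b, which encodes p15, had overlapping values of 45, 47.4 and 37.2 against 43.5, 41.4 and 47.6 CPM (log2 fold change 0.03 ± 0.16, adjusted p = 0.88). The other rise was Cdkn1c, p57, from 0.838, 0.706 and 0.892 CPM to 4.94, 4 and 6.2 CPM (log2 fold change 2.63 ± 0.33, adjusted p = 9.58e-07). Cdkn3, a phosphatase expressed with the mitotic genes, fell by 4.24, Cdkn2c by 1.29 and Cdkn2d by 0.91. Cdkn1b, which encodes p27, also fell. Without DMSO library S21 the value of Cdkn2c was -0.80. The median of the list was -0.15 and turned positive by library size alone (0.15) and by TPM (0.33).

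Targets of p53 rose in 15 of 29 members (51.7%) and fell in 3, at a median of 0.42. Gdf15, a stress-induced cytokine of the TGF-beta family, was at 2.09, 5.47 and 4.92 CPM with DMSO and 57.1, 84 and 85.1 CPM with KU60019 (log2 fold change 4.15 ± 0.34, adjusted p = 2e-09). Gadd45a, a growth arrest gene, was at 6.56, 18.3 and 25.2 against 266, 283 and 257 CPM (log2 fold change 3.995 ± 0.385, adjusted p = 2.19e-08). Both genes separated the groups completely. Gdf15 averaged 75.4 CPM after KU60019 removal and 65.6 CPM in irradiated cells, and 2.95 to 18.1 CPM in the 7 other groups, DMSO removal after 35 d included. Trp53i11 rose by 2.09 and the repair gene Xpc by 1.27 on the log2 scale. Mdm2, which encodes the ubiquitin ligase of p53, was at 130.1, 115 and 103 CPM against 109.9, 144 and 128 CPM, which overlap (log2 fold change 0.13 ± 0.13, adjusted p = 0.391). The falls were the pro-apoptotic gene Bax, by 1.41, Tnfrsf10b, by 0.66, and Ei24, by 0.41. By library size alone 18 members rose and 1 fell, and by TPM 19 rose and 1 fell of 28. In the fit to the 6 libraries alone, 12 rose and 1 fell. The median of the list was 0.61 without DMSO libraries S19 and S20.

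Of the ATM and damage signalling list, 18 of 26 fell and 3 rose, at a median of -0.92. Atm itself was low, at 5.45, 3.4 and 2.33 CPM with DMSO and 1.43, 1.86 and 1.71 CPM with KU60019 (log2 fold change -1.14 ± 0.44, adjusted p = 0.0367). The Atm call was lost without DMSO library S19 (-0.78, adjusted p = 0.19) or S20 (-1.19, 0.0548) and without KU60019 library S22 (-1.04, 0.103), S23 (-1.21, 0.0604) or S24 (-1.14, 0.0754). Brca1, a recombination gene, fell by 3.35, H2afx, the histone variant that ATM phosphorylates, by 2.08 and Parp1, a break sensor, by 1.17. The genes that rose were Prkdc, Trp53bp1 and Lig4, which act in non-homologous end joining or its choice, by 0.56, 0.80 and 0.73. No member rose without DMSO libraries S19 and S20, nor in the fit to the 6 libraries alone. The labels give treatment with KU60019 and its removal, and the activity of the kinase is not read out by these transcript levels.

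**Figure D3:**
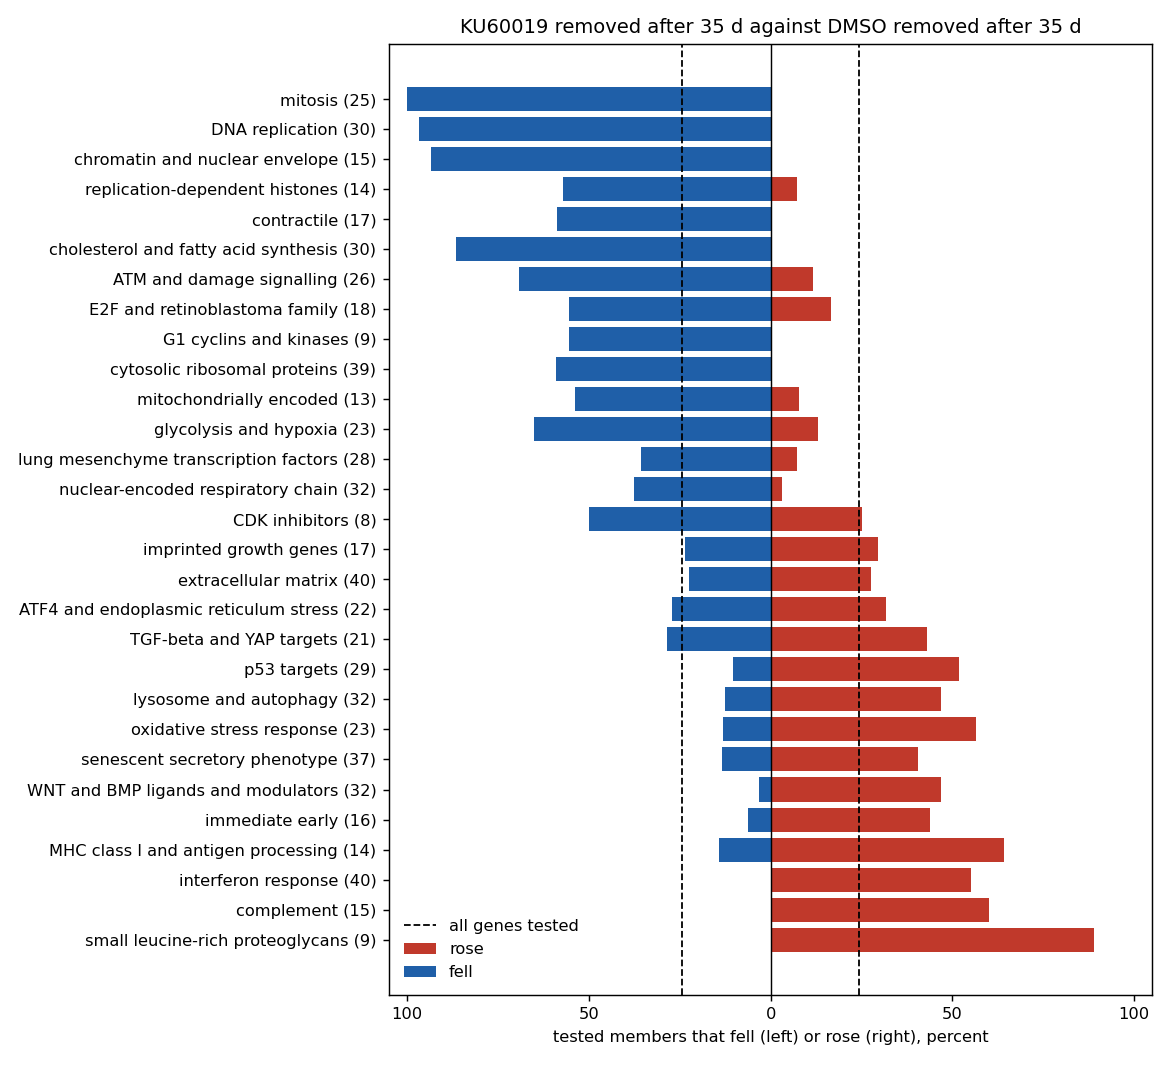
Percent of the tested members of each gene list that fell (blue, left) or rose (red, right) after KU60019 removal, with the number tested in parentheses and lists ordered by median log2 fold change. Dashed lines mark the 24.5% of all genes tested that fell and the 24.4% that rose. Mitosis, DNA replication and chromatin lists lie at or near 100% on the left, and the proteoglycan, MHC class I and complement lists at 60% or more on the right.

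The list of the senescent secretory phenotype rose in 15 of 37 tested members (40.5%) and fell in 5, at a median of 0.79. Without DMSO libraries S19 and S20 the counts were 6 and 3. Il6 was at 3.14, 7.33 and 16 CPM with DMSO and 89.4, 116 and 59.9 CPM with KU60019 (log2 fold change 3.30 ± 0.69, adjusted p = 0.000407). All KU60019 libraries were above all DMSO libraries, but without DMSO libraries S19 and S20 the adjusted p was 0.0584. Among the groups, the Il6 mean of 8.84 ± 6.58 CPM (SD, n = 3) after DMSO removal was the lowest, and the 88.5 ± 28.2 CPM (SD, n = 3) after KU60019 removal lay inside the range of the other groups, 44.9 to 322 CPM. Vegfa, an angiogenic factor, was at 171, 200.3 and 221 against 412, 528 and 527 CPM (log2 fold change 1.31 ± 0.25, adjusted p = 0.000142). Falls were Plaur, the urokinase receptor, by 1.83, the protease inhibitor Timp1 by 1.31, Timp2 by 0.79, Igfbp5 by 0.98 and the chemokine gene Cxcl5 by 2.34. Timp1 was at 9413, 5433 and 4781 CPM against 3569.6, 2017 and 2356 CPM.

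Genes of the interferon response rose in 22 of 40 members (55%) and none fell, at a median of 0.96. The count was 11 of 40 without DMSO libraries S19 and S20, with a median of 1.10, and 1 member fell without DMSO library S19. The mean log2 CPM over the interferon list was 2.49 to 2.63 in the DMSO libraries, below every other group. In the KU60019 libraries it was 3.37 to 3.85. It was 2.98 to 4.16 in the other DMSO groups, 4.31 to 6.12 in the other KU60019 groups and 3.59 to 4.74 after irradiation. Ifi44 was at 3.14, 2.91 and 1.67 CPM with DMSO and 17.9, 20.6 and 16.3 CPM with KU60019 (log2 fold change 2.85 ± 0.51, adjusted p = 7.73e-05). Dhx58 and Ifih1, sensors or regulators of the response to viral RNA, rose by 1.53 and 1.16, and Oas1b by 1.57. Irf9, which encodes a signal carrier of the pathway, had a log2 fold change of 0.01 and did not pass. Of the genes whose promoters are shown above, Rsad2 rose by 2.50, Oas1a by 2.32 and Trim30a by 1.39. MHC class I and antigen processing genes rose in 9 of 14 members and fell in 2. H2-D1, a class I heavy chain, was at 53.5, 89.9 and 93.1 against 418, 368 and 342 CPM (log2 fold change 2.25 ± 0.24, adjusted p = 1.23e-07), with no overlap. H2-K1 rose by 1.81, the light chain B2m by 1.19 and the class I transactivator Nlrc5 by 2.76. Reads of class I genes can be shared between near-identical copies, so their split is uncertain. Psmb10, an immunoproteasome subunit, and Pdia3 fell, by 1.92 and 0.54. No member fell without DMSO libraries S19 and S20, and 1 fell by library size alone or by TPM. Complement genes rose in 9 of 15 members and none fell, at a median of 1.28, and 5 rose without DMSO libraries S19 and S20. C2 was at 3.07, 1.94 and 2.17 against 50.5, 28.6 and 36.7 CPM (log2 fold change 4.03 ± 0.40, adjusted p = 3.1e-08), and Serping1, the C1 inhibitor, rose by 1.51. The mean log2 CPM over the complement list was 3.00 to 3.34 in the DMSO libraries and 4.45 to 4.64 in the KU60019 libraries. Both ranges lay below the 5.06 to 6.62 of the other DMSO groups. The list was at 3.96 to 4.92 after 15 d of KU60019, 5.07 to 5.56 after its removal and 5.34 to 5.98 after 35 d of KU60019. Irradiated cells had 3.96 to 4.85.

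Of 40 extracellular matrix genes 11 rose (27.5%) and 9 fell (22.5%), shares near those of all genes, at a median of 0.08 that was -0.06 without DMSO libraries S19 and S20. By library size alone 16 rose and 6 fell, at a median of 0.39, and by TPM 15 rose and 3 fell of 39, at a median of 0.63. Elastin, Eln, was at 3.77, 4.77 and 6.94 CPM with DMSO and 85.5, 97.6 and 97.2 CPM with KU60019 (log2 fold change 4.16 ± 0.53, adjusted p = 1.17e-06). The basement membrane gene Nid2 rose by 4.79 and the collagen gene Col14a1 by 3.97. Col1a1, the main fibrillar collagen chain, fell, from 4082, 4241 and 3929 CPM to 1243, 2018 and 1163 CPM (log2 fold change -1.47 ± 0.25, adjusted p = 4.39e-05), as did the proteoglycan Vcan, by 2.17. By contrast, 8 of 9 small leucine-rich proteoglycans rose and none fell, at a median of 2.45. This count was 5 without DMSO libraries S19 and S20. Decorin, Dcn, was at 42.7, 98.1 and 164 CPM against 1822, 1404 and 1402 CPM (log2 fold change 3.92 ± 0.46, adjusted p = 4.19e-07). Ogn was at 10.3, 16.3 and 16.3 against 223, 219.7 and 212 CPM (3.93 ± 0.32, adjusted p = 1.48e-09), Lum rose by 2.65 and Podn by 1.78. For both Dcn and Ogn the DMSO removal group had the lowest mean of all 9 groups, 102 and 14.3 CPM, and the KU60019 removal means of 1543 and 218 CPM lay within the range of the other 7.

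**Figure D4:**
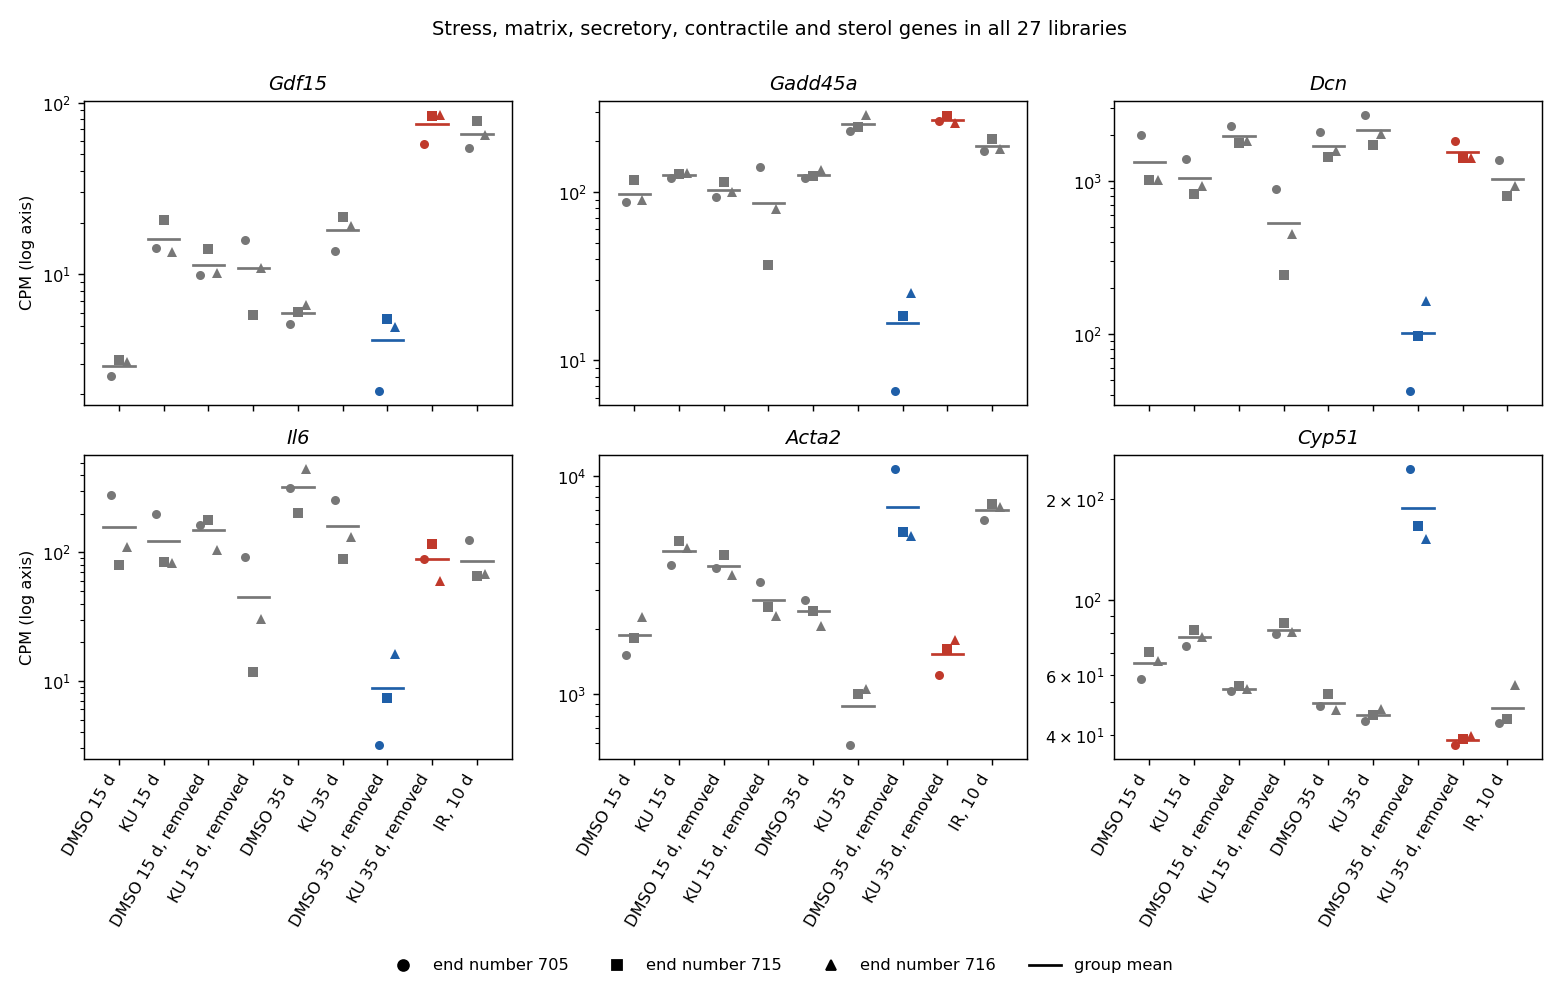
CPM on log axes of 6 further genes in all 27 libraries, by group, with a line at each group mean and marker shapes for the number in the title. DMSO removed after 35 d (blue) is lowest of all groups for Gadd45a, Dcn and Il6 and highest for Cyp51, and KU60019 removed after 35 d (red) is highest for Gdf15, at a mean of 75.4 CPM.

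Contractile genes fell in 10 of 17 members (58.8%) and none rose, at a median of -1.16. Smooth muscle actin, Acta2, was at 10757, 5523 and 5298 CPM with DMSO and 1223, 1608 and 1773 CPM with KU60019 (log2 fold change -2.23 ± 0.26, adjusted p = 4.43e-07), with library S19 the highest of the DMSO group. Calponin, Cnn1, fell by 3.53, Actg2 by 3.15 and the tropomyosin Tpm2 by 2.58. Tagln and Tpm1, also of this list, had log2 fold changes of -0.44 and -0.35 and did not pass. By library size alone and by TPM, 2 members of the list rose. Of markers of pericytes and smooth muscle, 4 of 8 tested fell (Cspg4, Mcam, Myh11 and Des) and 2 rose (Rgs5 and Notch3). Myh11 and Des are also on the contractile list, so their falls count in both. The summed level of these markers was 525 to 922 CPM with DMSO and 165 to 256 CPM with KU60019. Their mean log2 CPM overlapped, at 3.05, 3.08 and 3.54 with DMSO and 3.05, 3.25 and 3.10 with KU60019. The defining marker Higd1b was at 0 counts in all 6 libraries. The part of these markers in the fall of contractile genes was not tested. Acta1, skeletal actin, also fell, from 1240.0, 552 and 367 CPM to 7.83, 28.1 and 9.83 CPM. S100a4, a calcium-binding protein used as a fibroblast marker, was at 1489, 756 and 543 against 19.5, 19 and 25.9 CPM (log2 fold change -5.43 ± 0.52, adjusted p = 1.88e-08). Of the TGF-beta and YAP target list 9 rose and 6 fell among 21, with Tgfb2 up by 2.40 and the receptor kinase Axl down by 1.40, and 2 rose and 2 fell without DMSO libraries S19 and S20. WNT and BMP ligands and modulators rose in 15 of 32 tested members (46.9%) and 1 fell. Rspo3, which potentiates WNT signals, was at 32.9, 57.5 and 55.5 CPM against 237, 308 and 271 CPM (log2 fold change 2.48 ± 0.21, adjusted p = 2.63e-09), Wnt11 rose by 3.43 and Bmp6 by 4.29. Without DMSO library S19, 3 fell. The member that fell in the full fit was follistatin, Fst, an activin and BMP antagonist, by 2.56.

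Sterol and fatty acid synthesis genes fell in 26 of 30 members (86.7%) and none rose, at a median of -1.06, and 22 fell without DMSO libraries S19 and S20. Cyp51, lanosterol demethylase, was at 245, 166 and 151 CPM with DMSO and 37.2, 38.9 and 39.5 CPM with KU60019 (log2 fold change -2.28 ± 0.14, adjusted p = 2.11e-11). Sqle, squalene epoxidase, fell by 1.81, Idi1 by 1.72 and Hmgcs1, which makes HMG-CoA, by 1.62. A CCAAT box was in 90% of the 20 promoters of this list that the RefSeq table holds. Cyp51 had its highest mean of all 9 groups after DMSO removal, 188 CPM, and its lowest after KU60019 removal, 38.5 CPM. Glycolysis and hypoxia genes fell in 15 of 23 members and 3 rose, at a median of -0.55, with Eno1, enolase, down by 1.51, the pyruvate dehydrogenase kinase Pdk1 by 1.17 and Tpi1 by 0.90. The rises were Aldoc, Car9 and Adm, by 1.07, 2.23 and 2.10. Cytosolic ribosomal protein genes fell in 23 of 39 members, at a median of -0.68, but in 11 without DMSO library S19 and in 5 without both S19 and S20. Rps2 was at 1308, 659.6 and 553 CPM with DMSO, highest in the library richest in ribosomal RNA, and 263, 252 and 267 CPM with KU60019. Many processed pseudogenes derive from such transcripts, and reads may be split between these copies and their parents. Of 2365 processed pseudogenes tested, 547 (23.1%) fell, near the 24.5% of all genes. Rises were 123 (5.2%), against 24.4% of all genes. Nuclear-encoded respiratory chain genes fell in 12 of 32 members and 1 rose, at a median of -0.16 that was 0.11 by library size alone and 0.32 by TPM. By library size alone 3 rose and 2 fell, and by TPM 11 rose and 1 fell. Without KU60019 library S23, 7 fell, and without DMSO libraries S19 and S20, 3 fell. Of 13 mitochondrially encoded genes 7 fell and 1 rose, and without DMSO library S19, 3 fell and 2 rose. Without KU60019 library S23, 4 fell. The member that rose was mt-Co1, from 1641, 2376 and 3516 CPM to 12156, 11292 and 7621 CPM (log2 fold change 2.04 ± 0.26, adjusted p = 1.13e-06). The largest fall, of mt-Nd4l, went with library S19: its DMSO values were 445, 64.9 and 17.8 CPM against 10.1, 12.1 and 11 CPM with KU60019, and the log2 fold change of -3.99 was -1.90 without library S19. The part of the ribosomal RNA share in these results was not tested beyond leaving those libraries out.

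Lysosome and autophagy genes rose in 15 of 32 members (46.9%) and fell in 4, and 0 fell without DMSO library S19 or without KU60019 library S24. Cd68, a lysosomal membrane protein, was at 2.44, 2.91 and 3.37 CPM with DMSO and 27.6, 19.6 and 21.8 CPM with KU60019 (log2 fold change 2.97 ± 0.19, adjusted p = 2.78e-11). The protease Ctsh rose by 2.48, the sialidase Neu1 by 1.53 and the autophagy gene Gabarapl1 by 1.54. Beta-galactosidase, Glb1, whose activity marks senescent cells, had a log2 fold change of 0.05 and did not pass. Genes of the oxidative stress response rose in 13 of 23 members and fell in 3, with extracellular superoxide dismutase, Sod3, up by 1.94, the glutathione transferases Gsta4 and Gstm1 up by 2.79 and 1.68, and Nqo1 down by 1.58. Without DMSO library S19, 5 fell. Of ATF4 and endoplasmic reticulum stress genes 7 rose and 6 fell among 22: the chaperone Hspa5 and the stress factor Ddit3 rose by 1.38 and 1.75, and the serine and one-carbon enzymes Shmt2 and Phgdh fell by 1.79 and 1.45. Immediate early genes rose in 7 of 16 members and 1 fell. Their KU60019 values were uneven: Fosb was at 32.7, 252 and 31.1 CPM against 11.8, 5.38 and 4.57 CPM with DMSO, so that KU60019 library S23 carried much of the difference. Its log2 fold change was 3.89, and 2.18 without KU60019 library S23, and that of Fos was 2.40 and 1.53. Imprinted growth genes rose in 5 and fell in 4 of 17, and lung mesenchyme transcription factors rose in 2 and fell in 10 of 28, Twist2 by 2.56. The median of the last list, -0.25, was 0.11 by library size alone, with 7 rises and 7 falls, and 0.27 by TPM, with 10 rises and 7 falls. That of the imprinted list, -0.02, was 0.28 and 0.38, and 0.07 without DMSO libraries S19 and S20. The single-library omissions moved the 2 rises of the transcription factor list to between 0 and 5.

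The 12 largest rises of named genes were Tnfsf18, Adamtsl2, Gprasp2, Ighm, Wfdc17, Gsta3, Bmp3, Cd200, Col22a1, Syn2, Lcn2 and Il33. Tnfsf18, the ligand of the receptor GITR, had 1 count over the 3 DMSO libraries and 933 over the 3 KU60019 libraries, a ratio per effective library size of 657 with a 95% exact interval, for counting error only, of 118 to 25985. Its KU60019 values were 12.3, 12.3 and 7.96 CPM. Adamtsl2, a matrix protein that binds latent TGF-beta complexes, was at 0.209, 0.0441 and 0.194 against 36.5, 35.7 and 46.9 CPM (log2 fold change 8.07 ± 1.04, adjusted p = 1.44e-06). Gprasp2, a GPCR-associated sorting protein, was at 0.14, 0.132 and 0.155 against 24.5, 19.5 and 23.2 CPM (7.25 ± 0.39, adjusted p = 2.86e-12). Bmp3, a BMP family member, was at 0.628, 0.706 and 0.504 against 60.1, 40.9 and 39.2 CPM (6.26 ± 0.36, adjusted p = 7.3e-12). Absence of overlap between the groups was a condition for choosing these genes. Their levels in the other groups differed. Adamtsl2 averaged 2.3 to 106 CPM and Bmp3 6.26 to 123 CPM in the other 7 groups, which hold the KU60019 removal means of 39.7 and 46.7 CPM. Gprasp2 and Tnfsf18 were high in KU60019 removal (22.4 and 10.8 CPM) and in 35 d of KU60019 without removal (19.5 and 9.07 CPM), and at 1.08 to 6.22 and 0.409 to 4.09 CPM in the 6 groups other than these and DMSO removal. Lcn2, an acute-phase protein, was at 1.12, 1.32 and 5 against 219, 85.6 and 104 CPM, and Il33, an alarmin, at 0.419, 0.574 and 1.05 against 50.3, 30.2 and 27.6 CPM.

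Markers were counted for the cells that a lung fibroblast culture could hold. The fibroblast list was abundant in both groups, at summed levels of 14482 to 17089 CPM with DMSO and 10154 to 12692 CPM with KU60019, with 3 of 12 markers higher, 5 lower and 4 not passing. Its median, -0.30, was 0.20 by TPM. Macrophage markers summed to 10.3 to 12 CPM with DMSO and 67.4 to 97.5 CPM with KU60019, and 3 of 8 tested rose, Cd68, Lyz2 and Marco. Of these Lyz2, lysozyme, was at 3.7, 3.57 and 4.42 against 63.4, 43.1 and 47 CPM, while the defining marker Adgre1 had 0 counts in all 6 libraries and Ptprc had 6 over the DMSO libraries and 0 over the KU60019 libraries. Marco rested on 7 counts against 0, and its call was lost on leaving out any DMSO library or KU60019 library S24. Of endothelial markers 2 of 12 rose, Vwf and Esam, with Pecam1 and Cdh5 at 25 or fewer counts over each group. Epithelial markers rose in 2 and fell in 2 of 6 tested, with Epcam at 2 and 1 counts, and without DMSO library S19, 1 fell. Adipocyte and lipofibroblast genes rose in 4 of 6, among them Lpl by 3.10 and Pparg by 2.21, with Adipoq at 3 and 6 counts. Schwann and neural crest markers rose in 6 of 9 tested and none fell, and in 3 without KU60019 library S24. Without DMSO libraries S19 and S20, 1 of 10 rose. By RLE factors, DESeq2, the replicate block, the length trend or the 6 libraries alone, and without DMSO library S21, 1 fell. Sox10, the transcription factor that defines these cells, was at 0, 0 and 0.0388 CPM with DMSO and 1, 1.55 and 4.75 CPM with KU60019, 1 count against 244 (ratio 172, 95% exact interval 30.6 to 6816). Foxd3 was at 0 counts with DMSO and 64 with KU60019, at least 15-fold higher with the DMSO group set at 3 counts in all, and with a 95% exact lower limit of 11.9. Because bulk RNA is a sum, fewer cells of a type and less RNA in each cannot be told apart. The part of these markers in other results was not tested.

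The effect of KU60019 after 35 d and removal was then set against its effect in 2 other settings, whose libraries are not those of this comparison. Against 35 d without removal, 6060 genes (32.4%) had a different effect by an interaction contrast, 2952 (15.8%) more positive and 3108 (16.6%) more negative. The split moved with scaling, to 4504 and 1763 by library size alone and 7723 and 808 by limma on log2(TPM + 1), and without DMSO libraries S19 and S20 it was 1606 and 1725. Mitosis genes differed in all 25 members, each more negative, with a median log2 fold change of -5.18 after removal and -0.29 without. For Mki67 the effect was -6.74 after removal and -0.48 without, a difference of -6.26 ± 0.36 (adjusted p = 5.86e-11). Sterol genes differed in 24 of 30 members, with medians of -1.06 and 0.18, and ribosomal protein genes in 28 of 39, with medians of -0.68 and 0.43. Extracellular matrix genes were more positive in 20 of 40 and more negative in 2, with medians of 0.08 and -0.64. Complement genes were more positive in 9 of 15, with medians of 1.28 and -0.23. With either treatment, the mean log2 CPM of both lists was lower after removal than without. For DMSO the matrix list was at 7.45 to 7.65 against 8.69 to 9.10, and the complement list at 3.00 to 3.34 against 5.69 to 5.89. For KU60019 the matrix list was at 7.69 to 7.93 against 8.15 to 8.23, and the complement list at 4.45 to 4.64 against 5.34 to 5.98. Interferon genes differed in 2 of 40, with medians of 0.96 after removal and 0.78 without. A miss of the threshold does not show that those effects were equal. Mitochondrially encoded genes were more negative in 12 of 13, with medians of -0.63 and 1.65. The most positive differences of named genes were in Adamtsl2, Cxcl13, Palmd, Bmp3 and Chrdl2, and the most negative in Prl2c3, Prl2c2, Nrgn, Stmn2, Ska1 and Mki67. Of these Cxcl13, a chemokine, had 0 counts with DMSO removal and 81 with KU60019 removal, at least 19-fold higher on the same floor with a 95% exact lower limit of 15.1, and 4.44 and 5.49 CPM in the 35 d groups without removal. The prolactin-family genes Prl2c2 and Prl2c3 are near-identical copies, so their counts are uncertain. Prl2c2 averaged 36.5 CPM after DMSO removal and 5.28 CPM after KU60019 removal, against 0.103 and 2.78 CPM without removal, so the effect of KU60019 had opposite signs.

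Against 15 d of KU60019 followed by removal, 11028 genes (59%) had a different effect, 5494 (29.4%) more positive and 5534 (29.6%) more negative. The split was 7220 and 3710 by library size alone and 9327 and 1951 by limma on log2(TPM + 1). Mitosis genes were more negative in 24 of 25 and replication genes in 29 of 30, with replication medians of -2.68 after 35 d and 0.41 after 15 d. Mki67 had effects of -6.74 and 0.57, a difference of -7.31 ± 0.37 (adjusted p = 4.85e-12). All 39 ribosomal protein genes differed, each more negative, with medians of -0.68 and 1.15. Interferon genes were more negative in 12 of 40, near the 29.6% of all genes, and more positive in 1, against 29.4% of all genes. Their medians were 0.96 and 1.64. The genes Cdkn2a and Cdkn2b, which did not pass in the 35 d removal contrast, rose after 15 d and removal, and the differences were -1.28 ± 0.44 (adjusted p = 0.017) and -1.30 ± 0.23 (adjusted p = 5.5e-05). For Cdkn2a the means were 38.8 CPM with DMSO and 122 CPM with KU60019 at 15 d and removal, and 71.4 and 93 CPM at 35 d and removal. The most positive differences were in Cxcl14, Tnfsf18, Adamtsl2, Scel, Il33 and Pnpla3. Cxcl14, a chemokine, was at 18.6, 22.1 and 30.9 CPM against 1158, 985 and 1039 CPM at 35 d and removal, with means of 338 CPM for DMSO and 41.7 CPM for KU60019 at 15 d and removal. The most negative were Aqp5, Il1rn, Tspan11, S100a4, Gfra2 and Dlk1. S100a4 fell from a mean of 929 to 21.5 CPM at 35 d and removal and went from 29.4 to 224 CPM at 15 d and removal.

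**Figure D5:**
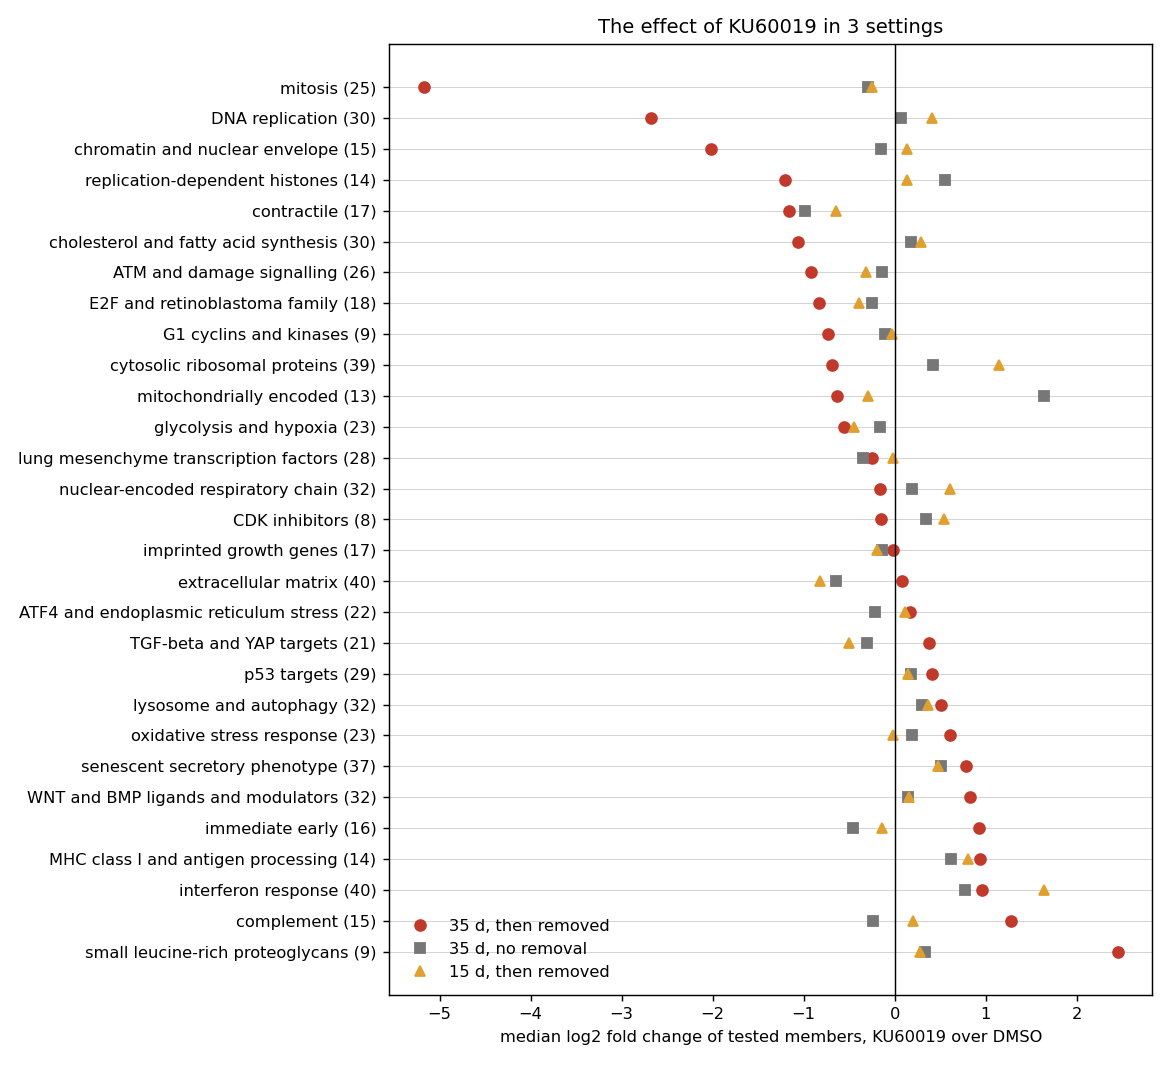
Median log2 fold change of KU60019 over DMSO for each gene list after 35 d and removal (red circles), 35 d without removal (grey squares) and 15 d and removal (orange triangles), with the number of members tested in parentheses. Mitosis is at -5.18 in red and at -0.29 and -0.25 in the other settings, while the interferon and MHC class I lists are above 0 in all 3.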

How the data were processed

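RNA of 27 libraries was measured by RNA-seq (TruSeq library preparation, per the labels' protocols). The authors deposited raw counts per gene, which the submitters' processing notes link to featureCounts and the mm10 build, and TPM values. How the TPM values were made, the strand setting, the aligner and the annotation version: not given in the sources used here. Of 48440 gene IDs, 48058 matched a symbol. Gene types, lengths and gene coordinates are from GENCODE M21 (GRCm38, the mm10 assembly) and promoters from RefSeq.

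Counts were fitted in edgeR 4.0.16 (R 4.3.3): filterByExpr with a minimum count of 10, TMM factors, a robust quasi-likelihood model of 9 group means over all 27 libraries, and contrasts adjusted by Benjamini-Hochberg over 18684 genes. SEs were taken as the log2 fold change over the square root of F. CPM values are scaled by TMM. Total counts were 20659745 to 50859493, and printed intervals reflect only counting error, which is smaller than the spread between libraries. The fit was tested on simulated data (main comparison, 18684 genes, 200 changed): 18%, 60%, 96% and 100% of genes changed 1.5-, 2-, 4- and 8-fold were recovered, with 6 unchanged genes among 143 calls. Replicate libraries differed by more than sampling noise. The chi-square per gene was 31.2 to 57.9 between KU60019 libraries and 44.4 between DMSO libraries S20 and S21. It was 205 between S19 and S20 and 354 between S19 and S21. Alternatives were RLE factors, library size alone, filters, DESeq2 1.42.0, limma 3.58.1 on log2(TPM + 1), a replicate block, subsets of genes or libraries and a length trend.

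Named genes were a panel of 10, the 12 largest rises and falls with adjusted p under 0.05, at least 5 CPM and no overlap of libraries, up to 4 members of lowest p per list, the 6 most positive and negative differences for each interaction, and exceptions to a list's direction. List members named beyond these were chosen after their values were seen. The comparison and the gene lists were chosen with earlier results of these data known. Results for a few genes that met these rules are not reported here.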

Additional observations from a re-analysis of the deposited data

Results flagged for a closer look

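The effect of KU60019 after 35 d and removal differed from its effect without removal for 6060 genes, and from its effect after 15 d and removal for 11028 genes, by interaction contrasts in the edgeR fit at an adjusted p under 0.05. Without DMSO libraries S19 and S20, the counts were 3331 and 8427. The contrasts share the 35 d removal libraries, so they are not independent of each other.

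Of the 10 panel genes, 6 differed from the effect without removal, by log2 differences of -6.26 for Mki67, -2.46 for Lmnb1, -2.28 for Hmgb2, -1.41 for Ccnd1, -0.74 for Cdkn2b and 4.31 for Il6. From the effect of 15 d and removal, 6 differed: Mki67 by -7.31, Lmnb1 by -3.42, Hmgb2 by -2.88, Cdkn2b by -1.30, Cdkn2a by -1.28 and Il6 by 5.03. Cdkn1a, Mdm2 and Atm passed neither test.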

How the results depend on the processing

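The count of called genes, 9130, fell to 5487 in a fit to the 6 libraries compared and to 6012 without DMSO libraries S19 and S20. Genes called higher were 2966 and 3033 in those fits, and genes called lower 2521 and 2979. By library size alone 2669 genes were called lower, and by limma on log2(TPM + 1) 1751. The difference from 35 d without removal held for 3331 genes without DMSO libraries S19 and S20. Leaving out 1 library at a time gave 7970 to 9857 calls. More positive and more negative differences from 35 d without removal, 2952 and 3108, were 4504 and 1763 by library size alone, 7723 and 808 by TPM, and 1606 and 1725 without S19 and S20. From 15 d and removal, 5494 and 5534 became 9327 and 1951 by TPM. The other overall counts moved by less than 1.5 times under the other alternatives run. With the replicate block 8974 genes were called, and the calls of 2 named genes, Marco and Upk3b, changed. Deviations of same-numbered libraries from their group means correlated at 0.0215, -0.0597 and -0.45, and those of other-numbered libraries at -0.318 to 0.411. Deviations from a mean of 3 libraries depend on each other, so these values cannot show whether the numbers pair the samples.

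Signs turned for 3 named genes. Cdkn2b was -0.0419 with the length trend removed and -0.0527 to 0.1059 with 1 library left out, and by TPM Ccnd1 was 0.0222 and Atp5a1 0.136. Without DMSO libraries S19 and S20, 27 of 198 named genes lost their call. The cause was not tested. Low counts limit genes near 1 CPM.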
